A study of Homo sapiens with 6 samples.

Results

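The insulin and PI3K pathway genes described here are 9 human genes, IRS1, IRS2, INSR, IGF1R, PIK3R1, PIK3IP1, FOXO1, FOXO3 and DDIT4. They are among 19775 genes that have a probe set with 1 symbol on the array. Every probe set whose annotated symbol is, or includes, 1 of these genes was taken, which gave 32 of 54613 non-control probe sets. Of these, 29 carried 1 symbol and 3 listed FOXO3 together with the near-identical copy FOXO3B. The genes were chosen by earlier results of this same comparison, their log2 changes between CA and DMSO, so these changes are given as a description and not as tests. RNA came from MOLM-14, an established acute myeloid leukaemia line with an MLL-AF9 fusion. The 3 wells called CA received 25 nM cortistatin A, an inhibitor of the Mediator kinases CDK8 and CDK19, for 3 h, and the 3 wells called DMSO received the solvent for the same time. Each well was read on 1 Affymetrix U133 Plus 2.0 array, and the deposited values are RMA log2 expression values per probe set. The labels do not say that the wells were separate cultures, so the spread among these wells, on which every error rests, may be only technical. Each SD is that spread alone. Each SE and confidence interval comes from limma, which draws the variance of a probe set toward a value shared by all probe sets.

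Insulin and insulin-like growth factors bind the receptor tyrosine kinases INSR and IGF1R, which phosphorylate the adaptors IRS1 and IRS2. The adaptors bind PIK3R1, a regulatory subunit of PI3K, and the lipid that PI3K makes recruits the kinase AKT. AKT keeps the transcription factors FOXO1 and FOXO3 out of the nucleus and activates the growth kinase complex mTORC1, and PIK3IP1 and DDIT4 restrain PI3K and mTORC1. FOXO factors in turn activate genes for IRS2 and for receptors of the pathway in several tissues, so that low insulin signalling raises its own components.

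The array medians lay between 5.03 and 5.08 and the pairwise correlations between 0.996 and 0.998. RMA equalises the distributions of the arrays, so alike medians do not speak for their quality. Of 8 measured haematopoietic and myeloid markers 7 lay above the array median on all 6 arrays, among them PTPRC, SPI1, CSF1R and MPO. Of 28 markers of erythroid, T, B, epithelial, fibroblast and of liver, fat, muscle and islet cells, 11 did. Among the 11 were 2 of 2 measured erythroid markers (HBB and ALAS2) and 3 of 4 B cell markers (CD79A, CD79B and PAX5). The remaining myeloid marker and 15 of the 28 lay below the median on all 6 arrays. A place above the array median therefore does not by itself show the cell type. In limma 0 of the 36 markers were called changed, and 2 had an unadjusted p under 0.05. Over all 19775 genes 0.359% were called, and 5.84% were upward and 3.64% downward at that unadjusted p. With so few markers these counts do not show whether the cell make-up changed. CA replicate 3 stood apart, at 33.82 on a first principal component that held 31.6% of the variance, with the other arrays between -12.85 and 6.44. Values without this array are given below for some of the probe sets.

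IRS2 was higher in CA at both of its probe sets, by about the same amount. At 209185_s_at the log2 values were 10.93, 10.96 and 10.98 in CA, against 10.32, 10.36 and 10.31 in DMSO. At 209184_s_at they were 9.84, 9.88 and 9.78 in CA, against 9.23, 9.21 and 9.26 in DMSO. At each probe set all 3 CA values lay above all 3 DMSO values, and the gap between the groups was far wider than the spread within either. The means at 209185_s_at were 10.95 ± 0.03 in CA and 10.33 ± 0.03 in DMSO (SD, n = 3 each), a log2 change of 0.62 ± 0.05 (SE). This is 1.54-fold (95% confidence interval from limma 1.41 to 1.68). At 209184_s_at the change was 0.60 ± 0.06, or 1.52-fold (1.38 to 1.66). These were the 67th and 91st largest of the log2 changes at all 54613 probe sets, ordered from the largest rise downward. RNA was taken from whole wells, so more IRS2 RNA per cell and a larger share of IRS2-expressing cells cannot be told apart.

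**Figure D1:**
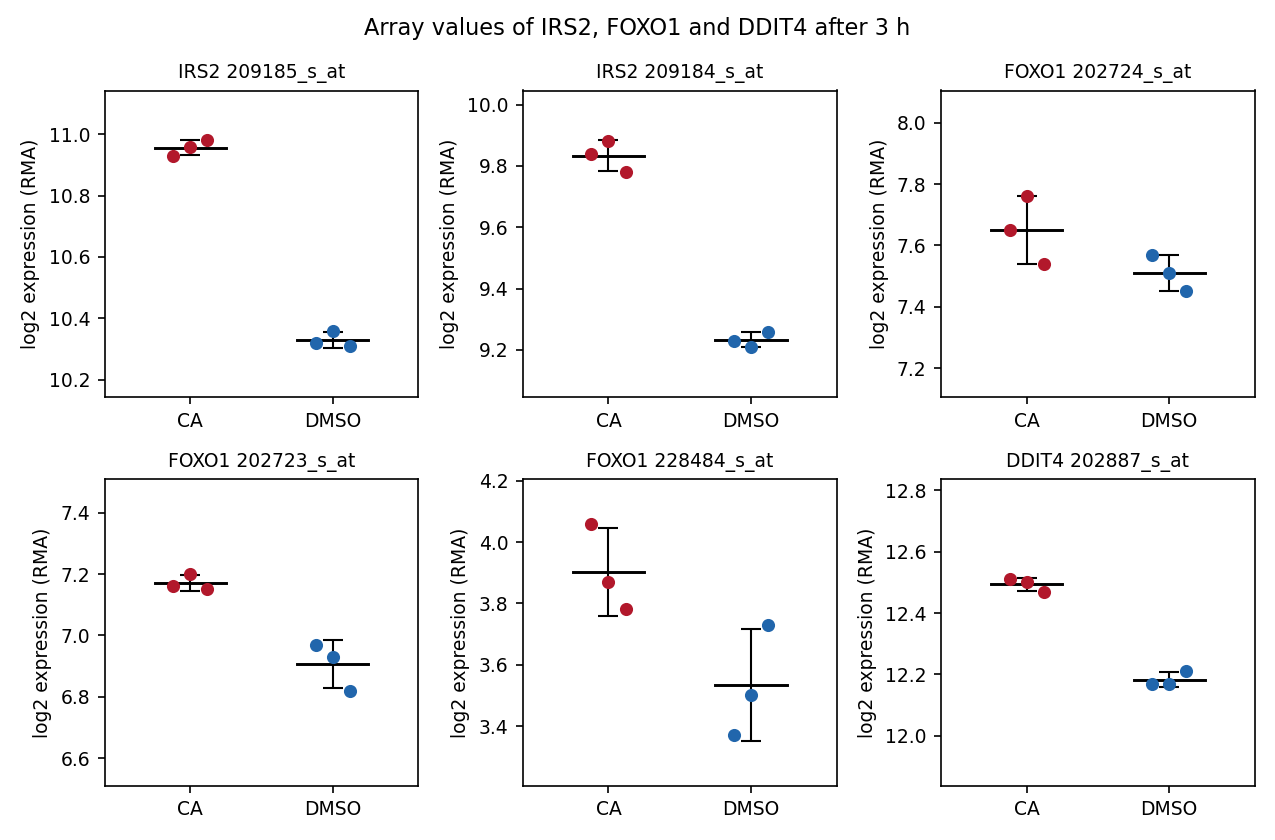
RMA log2 expression on each array (points) at the 6 probe sets of IRS2, FOXO1 and DDIT4, with the mean (line) and SD (bars) of the 3 CA and the 3 DMSO arrays. Each panel spans 1 log2 unit; the groups are separate in 5 panels and overlap at FOXO1 202724_s_at.

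The 2 IRS2 probe sets were the only ones of the 32 past an adjusted p under 0.05 in limma with Benjamini-Hochberg adjustment over all probe sets, and both were higher in CA. Over the whole array 0.220% of probe sets were called (120 of 54613), 0.212% as higher (116) and 0.00732% as lower (4). Since IRS2 was chosen for this contrast, nothing is read from its count. The call needed all 6 arrays: with any single array left out, limma called 0 of the 32 probe sets and 0 to 6 of all probe sets, and 5 to 8 of the 32 had an unadjusted p under 0.05, as had 6.1% to 10.6% of all probe sets in the same fits. With every array in, 6 of the 32 and 8.62% of all probe sets had. The size of the change did not depend on any single array. It stayed between 0.61 and 0.64 at 209185_s_at and between 0.58 and 0.63 at 209184_s_at, and it was 0.61 and 0.63 without CA replicate 3.

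**Figure D2:**
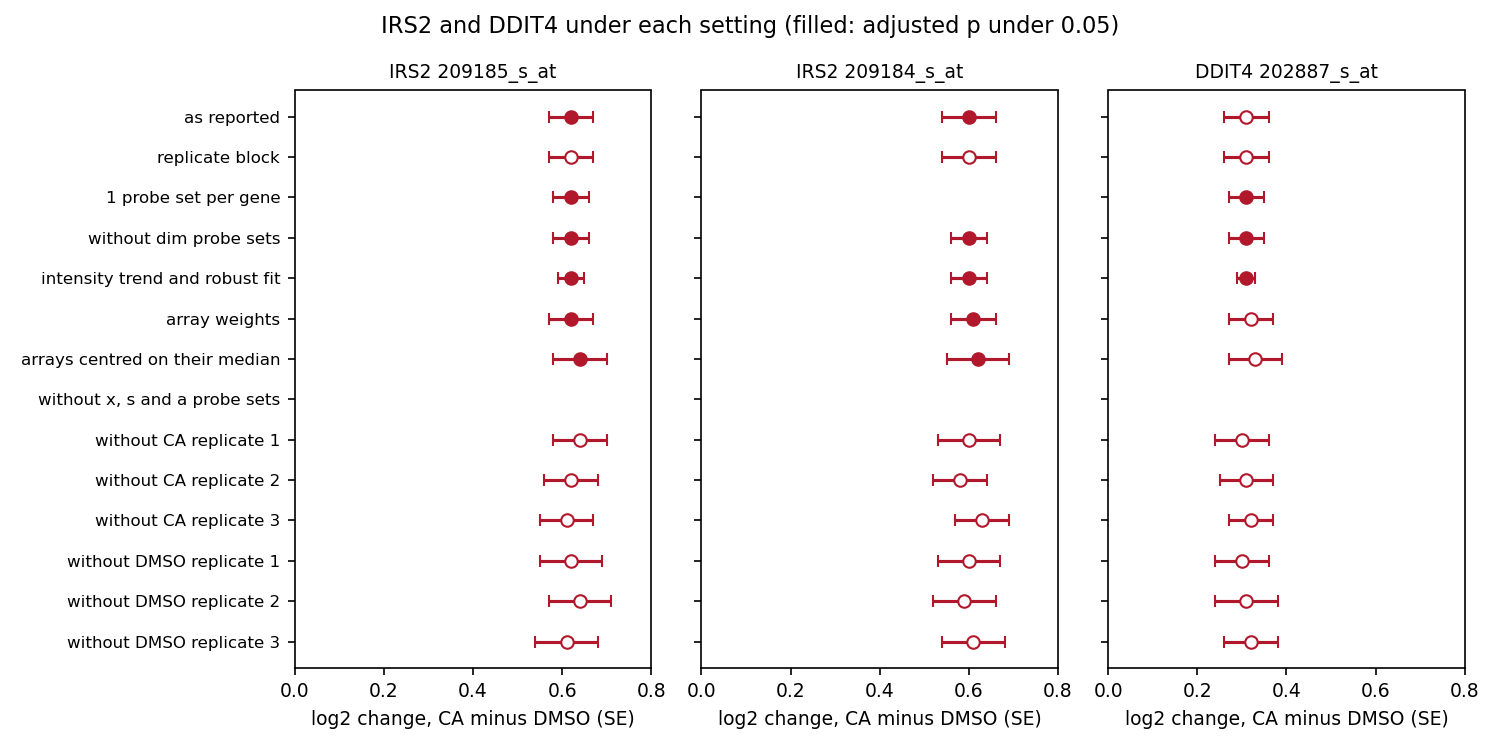
Log2 change (CA minus DMSO, points) and its SE (bars) at the 2 IRS2 probe sets and the DDIT4 probe set in the reported fit and under each alternative; filled points have an adjusted p under 0.05, and a blank means that the setting left the probe set out. The IRS2 changes lie between 0.58 and 0.64 and those of DDIT4 between 0.30 and 0.33, while the call depends on the setting.

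IRS1, the other widely expressed insulin receptor adaptor, gave dim signals and small differences. At 238933_at the log2 values were 4.58, 5.07 and 4.58 in CA, against 4.73, 4.52 and 4.74 in DMSO. At 204686_at they ran from 3.59 to 3.86 in CA, against 3.42 to 3.99 in DMSO, and at 242979_at from 2.18 to 2.52 in CA, against 2.15 to 2.38 in DMSO. The groups overlapped at all 3 probe sets, and 2 of the 3 lay below the array median on every array. The log2 changes were 0.08 ± 0.14, 0.08 ± 0.16 and 0.05 ± 0.10 (SE) in the same order, and single arrays moved them widely. With each array left out in turn, the change at 238933_at ran from -0.09 (without CA replicate 2) to 0.16 (without CA replicate 1 or 3). At 204686_at it ran from -0.02 (without DMSO replicate 2) to 0.27 (without DMSO replicate 3), and at 242979_at from -0.04 (without CA replicate 3) to 0.12 (without CA replicate 2). The sign of IRS1's change was thus not settled at any of the 3. The widest of the 3 confidence intervals with all arrays ran from 0.82-fold to 1.37-fold. A rise of IRS1 as large as that of IRS2 lay outside these intervals, although RMA can compress differences of dim probe sets.

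Promoters of 4 genes are shown because IRS2, FOXO1 and DDIT4 were the genes with the largest changes here and IRS1 is the paralogue whose signal barely differed. Each sequence is the 250 bases before the annotated start of the gene, on the strand of the gene, from RefSeq (GRCh38.p14). Capitals mark the motifs found. They are the CCAAT box (CCAAT) and an insulin response element (CAAAACAA), each searched on both strands, so a motif on the opposite strand reads as ATTGG or TTGTTTTG.
IRS2 (chr13:109786584-109786833, minus strand): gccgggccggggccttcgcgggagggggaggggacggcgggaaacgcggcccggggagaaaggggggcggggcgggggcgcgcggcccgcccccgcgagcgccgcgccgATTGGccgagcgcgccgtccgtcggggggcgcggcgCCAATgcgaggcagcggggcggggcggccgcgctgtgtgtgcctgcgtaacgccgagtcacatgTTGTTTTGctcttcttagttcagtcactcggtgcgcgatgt
IRS1 (chr2:226799821-226800070, minus strand): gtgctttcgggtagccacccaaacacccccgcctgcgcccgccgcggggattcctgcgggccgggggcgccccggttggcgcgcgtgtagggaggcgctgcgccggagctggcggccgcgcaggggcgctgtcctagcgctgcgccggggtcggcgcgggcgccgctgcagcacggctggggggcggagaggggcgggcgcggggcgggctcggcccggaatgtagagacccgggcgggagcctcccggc
FOXO1 (chr13:40666642-40666891, minus strand): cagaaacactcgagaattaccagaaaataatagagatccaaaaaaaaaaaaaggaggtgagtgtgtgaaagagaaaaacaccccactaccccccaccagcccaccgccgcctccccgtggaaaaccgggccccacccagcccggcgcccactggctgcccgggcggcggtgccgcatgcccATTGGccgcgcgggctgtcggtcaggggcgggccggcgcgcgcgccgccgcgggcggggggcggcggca
DDIT4 (chr10:72273674-72273923, plus strand): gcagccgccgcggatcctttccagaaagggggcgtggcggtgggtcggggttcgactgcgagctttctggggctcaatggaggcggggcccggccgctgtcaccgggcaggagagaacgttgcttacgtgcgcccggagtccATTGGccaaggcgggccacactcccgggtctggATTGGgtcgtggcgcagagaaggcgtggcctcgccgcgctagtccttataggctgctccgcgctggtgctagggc
The insulin response element, a sequence known to bind FOXO factors, stood in the IRS2 promoter 41 to 34 bases before the start and in none of the other 15 annotated starts of the 9 genes. It was present in 1.46% of all 35116 promoters. CCAAT boxes stood in the promoters of IRS2, FOXO1 and DDIT4 and at 1 start of PIK3R1, and in 32.0% of all promoters. IRS1 had neither. The forkhead sequence GTAAACA (2.98% of all promoters), the CREB site TGACGTCA (1.65%), the C/EBP site TTGCNNAA (9.05%) and the E-box CACGTG (6.34%) were found at 0 of the 16 starts, and the RUNX site TGTGGT (11.0%) at 1 start of FOXO3. The insulin response element and the CCAAT box were added to the search after the promoters had been read. A match is a description of these letters and shows no binding.

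The receptors gave little difference. INSR, the insulin receptor, has 5 probe sets. At 213792_s_at its log2 values were 10.35, 10.37 and 10.31 in CA, against 10.25, 10.22 and 10.18 in DMSO, so that the groups did not overlap, with a log2 change of 0.13 ± 0.05 (SE). At 226216_at they were 8.55, 8.68 and 8.73 in CA, against 8.42, 8.58 and 8.47 in DMSO, a change of 0.17 ± 0.07. The CA values leaned high at these probe sets, by at most 1.12-fold. The groups overlapped at 226216_at and at the other 3, whose changes were 0.11 ± 0.07, 0.04 ± 0.15 and -0.16 ± 0.14. Without CA replicate 3 these 3 changes were 0.15, 0.13 and -0.13. The probe sets of INSR thus did not share a direction. All 5 lay above the array median on every array.

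IGF1R, the receptor for insulin-like growth factor 1, has 5 probe sets too, and the groups overlapped at each. At 225330_at the log2 values were 8.74, 8.82 and 8.51 in CA, against 8.81, 8.79 and 8.73 in DMSO. The lowest of these came from CA replicate 3, which was also the lowest at 203628_at, with 7.68, 7.73 and 7.48 in CA, against 7.67, 7.75 and 7.67 in DMSO. The log2 changes of the 5 ran from -0.09 to 0.09. Without CA replicate 3 no difference was left to 2 decimals at 225330_at, where the change with it was -0.09, and the change at 203628_at was 0.01, against -0.07 with it.

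PIK3R1, which encodes the p85 alpha subunit that ties PI3K to the adaptors, did not separate the groups at any of 3 probe sets. At 212239_at the log2 values were 9.93, 9.95 and 9.70 in CA, against 9.88, 9.89 and 9.80 in DMSO, and at 212249_at they were 7.20, 7.06 and 6.69 in CA, against 6.94, 7.00 and 6.99 in DMSO. CA replicate 3 was the lowest array at both, and without it their log2 changes were 0.09 and 0.15, against 0.01 and 0.01 with it. At 212240_s_at the change was 0.05 ± 0.06 (SE). Over the 8 probe sets of IGF1R and PIK3R1 the confidence intervals together spanned 0.81-fold to 1.24-fold.

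PIK3IP1, a membrane protein that binds the catalytic subunit of PI3K and inhibits it, gave values that differed by probe set. At 221757_at the log2 values were 6.13, 6.04 and 6.04 in CA, against 6.15, 6.25 and 6.18 in DMSO, and this was the only 1 of the 32 probe sets where all 3 CA values lay below all 3 DMSO values. The change there was -0.12 ± 0.06 (SE). At the dim 1555632_at they were 4.99, 4.64 and 4.71 in CA, against 4.56, 4.29 and 4.66 in DMSO, a change of 0.28 ± 0.13 in the opposite direction. The groups overlapped there, and also at 221756_at, where the change was -0.03 ± 0.09.

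FOXO1 leaned high in CA at each of its 3 probe sets. At 202723_s_at the log2 values were 7.16, 7.20 and 7.15 in CA, against 6.97, 6.93 and 6.82 in DMSO, a change of 0.26 ± 0.06 (SE) or 1.20-fold (95% confidence interval 1.08 to 1.32). At 228484_s_at they were 4.06, 3.87 and 3.78 in CA, against 3.37, 3.50 and 3.73 in DMSO, a change of 0.37 ± 0.11 or 1.29-fold (1.07 to 1.55), and all of these values were below the array medians. The groups did not overlap at either. At 202724_s_at, the brightest, they did overlap, with 7.65, 7.76 and 7.54 in CA, against 7.57, 7.51 and 7.45 in DMSO, and the change was 0.14 ± 0.07. Leaving out single arrays moved it between 0.09 (without CA replicate 2) and 0.20 (without CA replicate 3).

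FOXO3, a FOXO factor too, has 7 probe sets, of which 4 carry its symbol alone. Of these, 2 separated the groups by small amounts. At 204131_s_at the log2 values were 9.29, 9.34 and 9.35 in CA, against 9.19, 9.11 and 9.17 in DMSO, a change of 0.17 ± 0.05 (SE). At 224889_at they were 9.06, 9.10 and 9.10 in CA, against 8.99 on each DMSO array. At 224891_at and 231548_at the groups overlapped, and the changes were 0.07 ± 0.07 and 0.08 ± 0.07. The 3 probe sets shared with FOXO3B gave 0.09, -0.02 and -0.18 and overlapped between the groups; signal from the 2 genes cannot be told apart there.

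DDIT4, also called REDD1, restrains mTORC1 and is known to be induced by hypoxia and other stresses. Its 1 probe set, 202887_s_at, had log2 values of 12.51, 12.50 and 12.47 in CA, against 12.17, 12.17 and 12.21 in DMSO. The groups were well apart, with a log2 change of 0.31 ± 0.05 (SE), or 1.24-fold (95% confidence interval 1.14 to 1.35). On the log2 scale this interval is 0.19 to 0.43, where that of IRS2 at 209185_s_at is 0.50 to 0.75. DDIT4 missed the threshold in the fit over all probe sets but passed it with 1 probe set per gene, a fit that called 0.895% of genes, without dim probe sets, and in a robust fit with an intensity trend. Over the 12 alternatives that held it the change ran from 0.30 to 0.33.

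**Figure D3:**
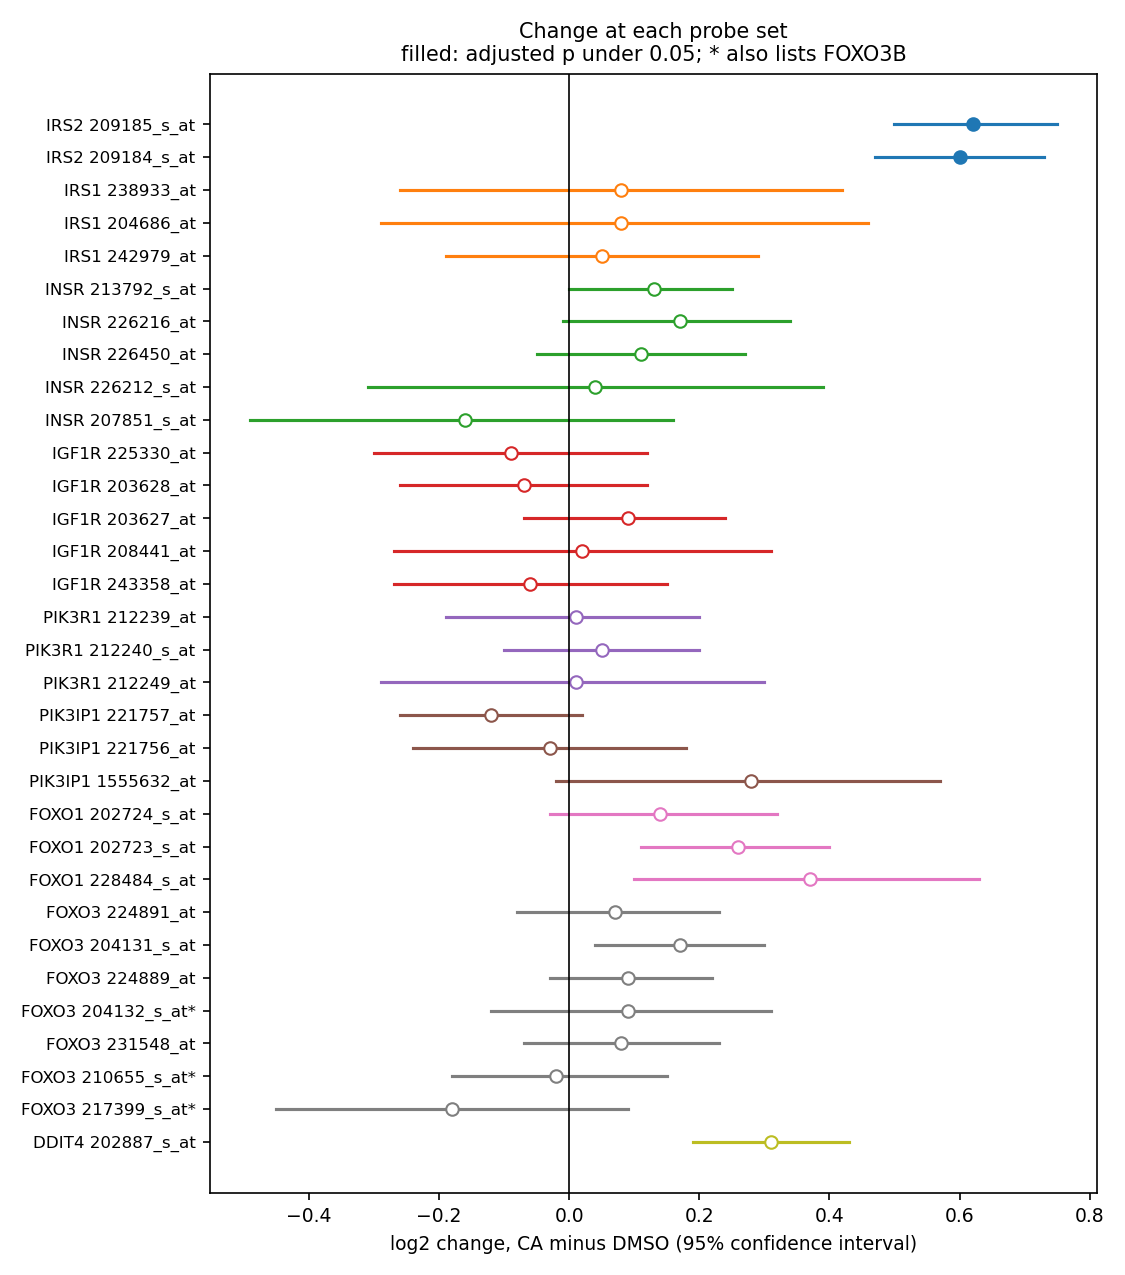
Log2 change (CA minus DMSO) with its 95% confidence interval at each of the 32 probe sets, by gene and then by falling mean signal; filled points have an adjusted p under 0.05 in limma. IRS2 lies at 0.60 and 0.62, DDIT4 at 0.31, the FOXO1 probe sets between 0.14 and 0.37, and the intervals of 26 of the 30 other probe sets hold 0.

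Over the 32 probe sets, 24 changes were above 0 and 8 below, and the median log2 change was 0.08, beside -0.0011 over all 54613 probe sets, of which 49.6% were above 0. All 3 CA values lay above all 3 DMSO values at 8 of the 32, where 8.96% of all probe sets did so, and below them at 1, where 6.55% did. The 8 belonged to IRS2 (2), FOXO1 (2), FOXO3 (2), INSR (1) and DDIT4 (1). The genes were chosen with these values known and several probe sets read 1 gene, so these counts describe the genes and are not a test.

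The other genes of the pathway were followed in 4 lists, each gene at its probe set with the highest mean signal. Of 120 listed genes 110 were measured and the other 10 were not analysed here. In limma 1 of the 110 rose and 0 fell. At an unadjusted p under 0.05 the numbers were 10 upward and 5 downward. Over all 19775 genes at such probe sets 0.359% were called, and 5.84% were upward and 3.64% downward at that unadjusted p, the shares against which each list's unadjusted counts are to be read. The median log2 change of the 110 was 0.0043, beside 0.0037 for all genes.

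Among 26 measured ligands, receptors and adaptors, 0 were called by limma, with 3 upward and 0 downward at an unadjusted p under 0.05, and the median log2 change was -0.0039. GAB2, a docking adaptor that binds PI3K, had log2 values of 9.03, 9.01 and 9.02 in CA, against 8.63, 8.59 and 8.67 in DMSO, a change of 0.39 ± 0.05 (SE; limma adjusted p = 0.0581). SOCS1, an inhibitor of cytokine and insulin receptor signalling, had 6.60, 6.54 and 6.45 in CA, against 6.25, 6.03 and 5.99 in DMSO, a change of 0.44 ± 0.08 (limma adjusted p = 0.162). The groups did not overlap for either gene, and neither passed. Both passed in the robust fit with a trend on intensity. GAB2 also passed with 1 probe set per gene, without dim probe sets and with array weights. The 3 other probe sets of SOCS1 gave changes of 0.01 to 0.29.

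Among 16 measured PI3K subunits and phosphoinositide phosphatases, 0 were called by limma, with 1 upward and 1 downward at an unadjusted p under 0.05. PIK3R3, another regulatory subunit, had log2 values of 7.90, 7.90 and 7.94 in CA, against 8.11, 8.13 and 8.17 in DMSO, a change of -0.22 ± 0.05 (SE; limma adjusted p = 0.271). INPP5D, the phosphatase SHIP1 of blood cells, had a change of 0.19 ± 0.06 (limma adjusted p = 0.442). The other probe set of PIK3R3 gave -0.11, and the 2 others of INPP5D gave -0.02 and 0.24. Of 32 measured genes of AKT, TSC and mTORC1, 0 were called by limma, with 1 upward and 1 downward by the same unadjusted measure. The 2 with the smallest p were RICTOR, a subunit of mTORC2, at -0.13 ± 0.05, and the forkhead factor FOXK2 at 0.13 ± 0.05 (limma adjusted p = 0.565 for each). The 6 other probe sets of FOXK2 gave changes of -0.15 to 0.28, and the 3 others of RICTOR -0.24 to -0.05. The changes of these 32 genes stayed between -0.13 and 0.18.

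Of 36 measured FOXO factors and targets 1 rose and 0 fell in limma, with 5 upward and 3 downward before adjustment. BCL2L11, which encodes the death-promoting BCL2 relative BIM, had log2 values of 10.19, 10.19 and 10.09 in CA, against 9.50, 9.56 and 9.51 in DMSO. It rose by 0.63 ± 0.06 (SE), or 1.55-fold (95% confidence interval 1.41 to 1.70, limma adjusted p = 0.0206). Its 6 other probe sets gave changes of 0.07 to 0.80, and 2 of them passed too. The call was lost when any single array was left out. TXNIP, a repressor of glucose uptake, went the other way, with 10.02, 10.05 and 10.15 in CA, against 10.50, 10.51 and 10.50 in DMSO, a change of -0.43 ± 0.06 (limma adjusted p = 0.0581). Its 2 other probe sets gave -0.38 and -0.39. It passed with 1 probe set per gene, without dim probe sets, in the robust fit with a trend and with array weights. The cell cycle inhibitor CDKN1B had a change of 0.39 ± 0.07 (limma adjusted p = 0.102) and passed with 1 probe set per gene, without dim probe sets, and in the robust fit with a trend. CCNG2, which encodes cyclin G2, had one of -0.24 ± 0.10 (limma adjusted p = 0.57). Both were named after their values were seen, and only their probe sets with the highest mean are given. The median of the list was 0.0073.

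**Figure D4:**
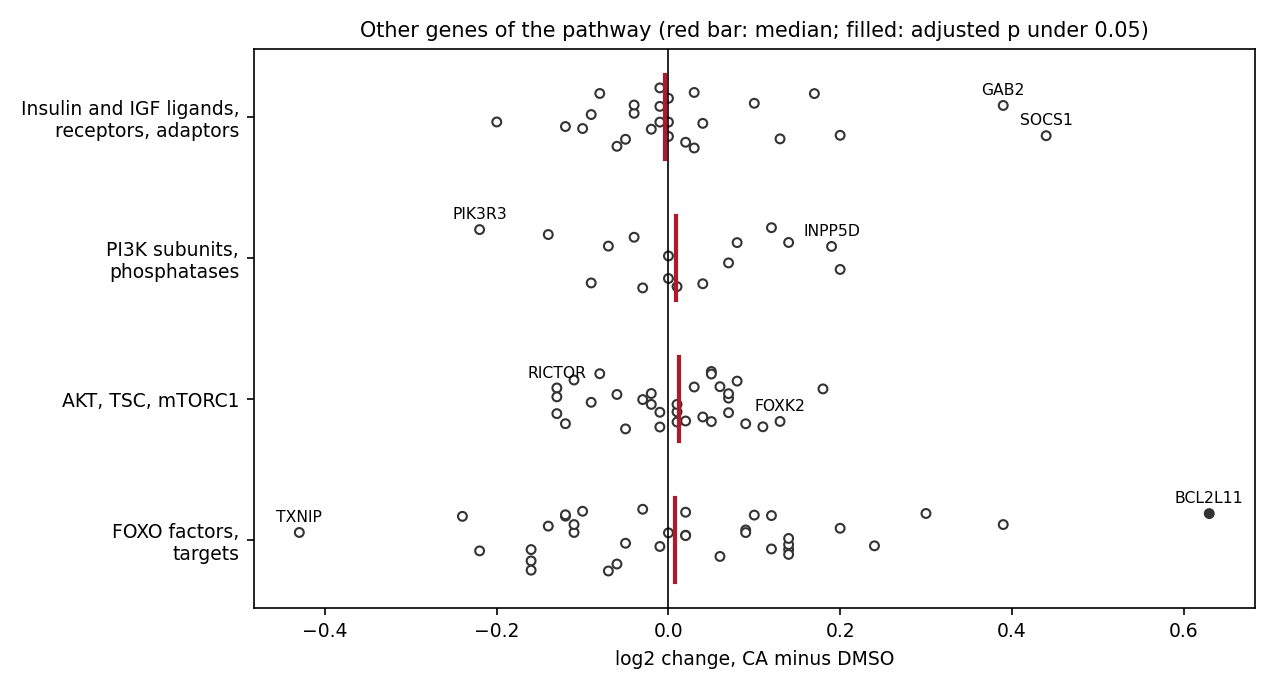
Log2 change (CA minus DMSO) of the 110 other measured pathway genes in 4 lists, each point a gene at its probe set with the highest mean, spread vertically at random for legibility; bars mark list medians and the filled point an adjusted p under 0.05. BCL2L11 at 0.63 is the filled point, and the medians lie between -0.0039 and 0.0120.

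The genes whose values ran most like those of IRS2 over the 6 arrays were taken from 7159 genes whose range was at least 0.5 times its own range of 0.67. The 5 highest Pearson correlations with 209185_s_at were those of SMAGP (0.9991), SMIM3 (0.9988), PECAM1 (0.998), CRYBG1 (0.9977) and BMP2 (0.9972). Of these, SMIM3 had log2 values of 8.86, 8.88 and 8.90 in CA, against 8.18, 8.17 and 8.14 in DMSO, and BMP2, a ligand of the TGF-beta family, had 9.15, 9.19 and 9.22 in CA, against 8.52, 8.60 and 8.46 in DMSO. PECAM1, an adhesion molecule of myeloid and endothelial cells, had 11.09, 11.12 and 11.13 in CA, against 10.69, 10.71 and 10.72 in DMSO. Such a ranking over 6 arrays in 2 groups mostly reads the gap between the groups, and 201 of the 7159 genes had a correlation over 0.95.

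The nearest measured protein-coding genes on either side were looked up for the 3 genes with the largest changes, after their values were seen. Beside IRS2, COL4A1 had a log2 change of 0.22 ± 0.10 (SE) and MYO16 one of -0.07 ± 0.12, and both were below the array medians. Beside DDIT4, ANAPC16 and DNAJB12 gave 0.02 and 0.06, and beside FOXO1, COG6 and MRPS31 gave -0.10 and 0.04. In limma 0 of the 6 neighbours passed, and 0 had an unadjusted p under 0.05. Over all 19775 genes 0.359% were called, and 5.84% were upward and 3.64% downward at that unadjusted p. With 6 genes these counts therefore do not show that the neighbours were unchanged.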

How the data were processed

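The authors deposited 1 table with a log2 value for each probe set on each of 6 arrays (MOLM-14 RNA, Affymetrix U133 Plus 2.0). The submitters' processing notes name RMA, run in affy. This method removes background, equalises the distributions of the arrays and summarises probes, so a change common to all genes is lost. The sources used here give no versions and no scan dates. RNA was isolated with an RNeasy kit or with TRIzol, and which array had which is not given, so the effect of the reagent was not tested. Of 54675 probe sets, 62 controls were left out. Gene names came from the platform annotation, in which 41091 probe sets have 1 symbol, 1801 several and 11721 none.

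Groups came from the titles. CA and DMSO were compared with limma (version 3.58.1, R 4.3.3) by lmFit and eBayes without a trend or a block (prior degrees of freedom 3.06), two-sided, with Benjamini-Hochberg adjustment over 54613 probe sets and a threshold of 0.05. The smallest two-sided p of an exact permutation test of 3 against 3 is 0.1. The members and lists were chosen with earlier results of these data known. Named were all probe sets of the 9 genes, up to 6 called genes per list (or the 2 with the smallest p where fewer than 2 were called), and the 5 genes most correlated with IRS2. The steps were tested on simulated data. Precision is limited by the number of arrays. Alternatives were a replicate block, 1 probe set per gene, no dim probe sets, an intensity trend with a robust fit, array weights, median centring, no _x_at, _s_at and _a_at probe sets, and leaving out each array.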

Additional observations from a re-analysis of the deposited data

How the results depend on the processing

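Over all probe sets limma called 120. It called 398 without dim probe sets, 740 (640 higher) in a robust fit with a trend on intensity, 196 with array weights, 47 without _x_at, _s_at and _a_at probe sets and 1 with the replicate number as a block. It called 177 of the genes with 1 probe set each and 112 of the centred probe sets. With each array left out in turn it called 0 to 6. Of the probe sets of the 9 genes, 2 were called. This was 0 with the replicate block (9 at an unadjusted p under 0.05, as were 10.9% of all probe sets), and 0 without _x_at, _s_at and _a_at probe sets, a setting that leaves out IRS2 and DDIT4. It was 0 without any single array. Of the listed pathway genes 1 was called. This was 4 with 1 probe set per gene (BCL2L11, CDKN1B, GAB2 and TXNIP), a fit that called 0.895% of genes. It was 4 of 93 tested without dim probe sets, where 1.46% of all probe sets were called. With the trend and robust fit it was 6 (1.35% of all probe sets) and with array weights 3 (0.359%). It was 0 with the block (19 unadjusted) and 0 without any single array (9 to 19 unadjusted). Of all probe sets 10.9% with the block and 6.1% to 10.6% without an array had such a p. These shares are over probe sets, while the listed genes were read at their brightest probe set, so the 2 are not directly comparable. The smaller fits have fewer samples or probe sets, and the block fit has fewer residual degrees of freedom. With the block the IRS2 changes were still 0.62 ± 0.05 and 0.60 ± 0.06 (SE). Otherwise the cause of these differences in calls was not tested. IRS2 kept its direction in all 23 values under an alternative and passed in 9, DDIT4 passed in 3 of 12, and of the other members 0 passed. Replicate numbers are shared in the titles, but same-numbered arrays deviated together with correlations of 0.081, 0.192 and 0.26, which does not establish pairing. CA replicate 3 correlated best with DMSO replicate 3, and CA replicate 2 with DMSO replicate 2, while CA replicate 1 correlated slightly better with DMSO replicate 2 (0.083) than with DMSO replicate 1. Dim probe sets, such as those of IRS1, limit what could be seen.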
